A study of Canis lupus familiaris with 37 samples.

Results

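The module described here consists of 6 of the 32704 Ensembl genes in the count tables of 37 canine samples. Its members reached at least 5 CPM (a gene's count scaled to the total of counts on genes in its sample) in 2 or more of 3 intestinal lymphomas and stayed below 1 CPM in 33 other samples, namely 4 non-neoplastic lymph nodes (controls), 12 primary B-cell lymphomas and 17 cell line samples. The 106 identifiers in the study's lists of differentially expressed miRNAs and long non-coding RNAs were to be left out. Of those identifiers, 0 passed the rule. Other non-coding genes were not left out, and whether a member is one was not analysed here. The only sample without a part in the selection was 1 primary T-cell lymphoma. The members were chosen by their measured CPM, so their levels in the other 36 samples are given as a description, with no test.

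The lymphomas came from dogs with naturally occurring disease, and the study describes the B-cell lymphomas as multicentric. The source names of the 3 intestinal lymphomas call them unclassifiable by flow cytometry, against another label field of replicates 2 and 3 that calls these B-cell lymphoma. The study placed them with the T-cell lymphoma as probable T-cell lymphomas. The cell lines were CLBL-1 (n = 5), a line from a diffuse large B-cell lymphoma, CLBL-1M (n = 5), grown from a xenograft tumour of CLBL-1, GL-1 (n = 1), another B-cell line, and the T-cell lines OSW (n = 4) and CL-1 (n = 2). Samples of a line repeat that line, whereas each lymphoma is a different dog. The labels give no treatment and no age.

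Lymphoma of the intestine grows within the gut wall, which also holds absorptive and mucus-secreting epithelium, smooth muscle, enteric nerves and resident lymphocytes. A lymph node holds none of the epithelium, and a cultured lymphoid line holds none of these other cells. RNA of a bulk tumour sample is a mixture over all cells in the tissue taken, so that fewer cells of a type and less RNA per cell cannot be told apart. The count tables name genes by Ensembl identifier alone and no table used here pairs the identifiers of these genes with symbols or positions, so that the function, position and sequence of the 6 genes were not analysed here. For the same reason, markers of gut epithelium, muscle, nerve, T cells and B cells were not analysed here, and whether the reads of the 6 genes came from gut tissue or from tumour cells was not tested.

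Between 1962722 and 4863730 reads were counted on genes per sample (median 2942360). The intestinal lymphomas had 3914464, 2240661 and 2228778 counts in replicates 1, 2 and 3, and the T-cell lymphoma had 3489675. A level of 5 CPM stood for 19.6 counts in intestinal replicate 1 and for 11.2 and 11.1 counts in replicates 2 and 3. A level of 1 CPM stood for 1.96 to 4.86 counts over the 37 samples, so a sample below it could still hold between 1 and 4 reads of a gene. Intervals of CPM in the text are exact 95% Poisson intervals. Intervals of ratios are exact 95% binomial intervals of the counts, converted to a ratio. Both cover counting error alone. Control replicate 4 stood apart, with 0.476% of its reads on more than 1 gene against 0.129 to 0.143% in the other controls, and the source name of this library is that of a T-cell line. All other primary samples had 0.0977 to 0.229% and the cell lines 0.363 to 0.549% of such reads. By other measures control replicate 4 was unlike the cell lines. It had 19668 genes with a count and 82.9% of reads outside genes, the most of all 37 samples. The highest values in a cell line sample were 16763 genes and 77.6%, both in GL-1. What tissue or cells this library came from was not tested. The flow cytometry field of the labels goes against the titles of several samples, among them the T-cell lymphoma and the controls. Groups here follow the titles. Titles and file names also disagree on the line of the CLBL-1M and CLBL-1 libraries, and the rule treats these lines alike.

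The 6 genes did not move together over the 3 intestinal lymphomas. Replicate 2 was at 5 CPM or more for 6 of 6 genes, replicate 3 for 4 and replicate 1 for 2. No gene reached 5 CPM in all 3, and no gene did so in replicates 1 and 3 without replicate 2. The 6 genes thus fell into 2 genes high in replicates 1 and 2 and 4 genes high in replicates 2 and 3. The absent pair depended on the limit in the cell lines. Without it the rule left 20 genes, 4 of them at 5 CPM or more in replicates 1 and 3 only. Summed over the 6 genes, the level was 1171 CPM in replicate 1, 82.1 CPM in replicate 2 and 140.0 CPM in replicate 3. A single gene made up most of the sum in replicate 1, and without ENSCAFG00000009144 the sums were 99.4, 68.7 and 138.6 CPM. CPM is not scaled by gene length, so levels are compared between samples for 1 gene and not between genes.

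**Figure D1:**
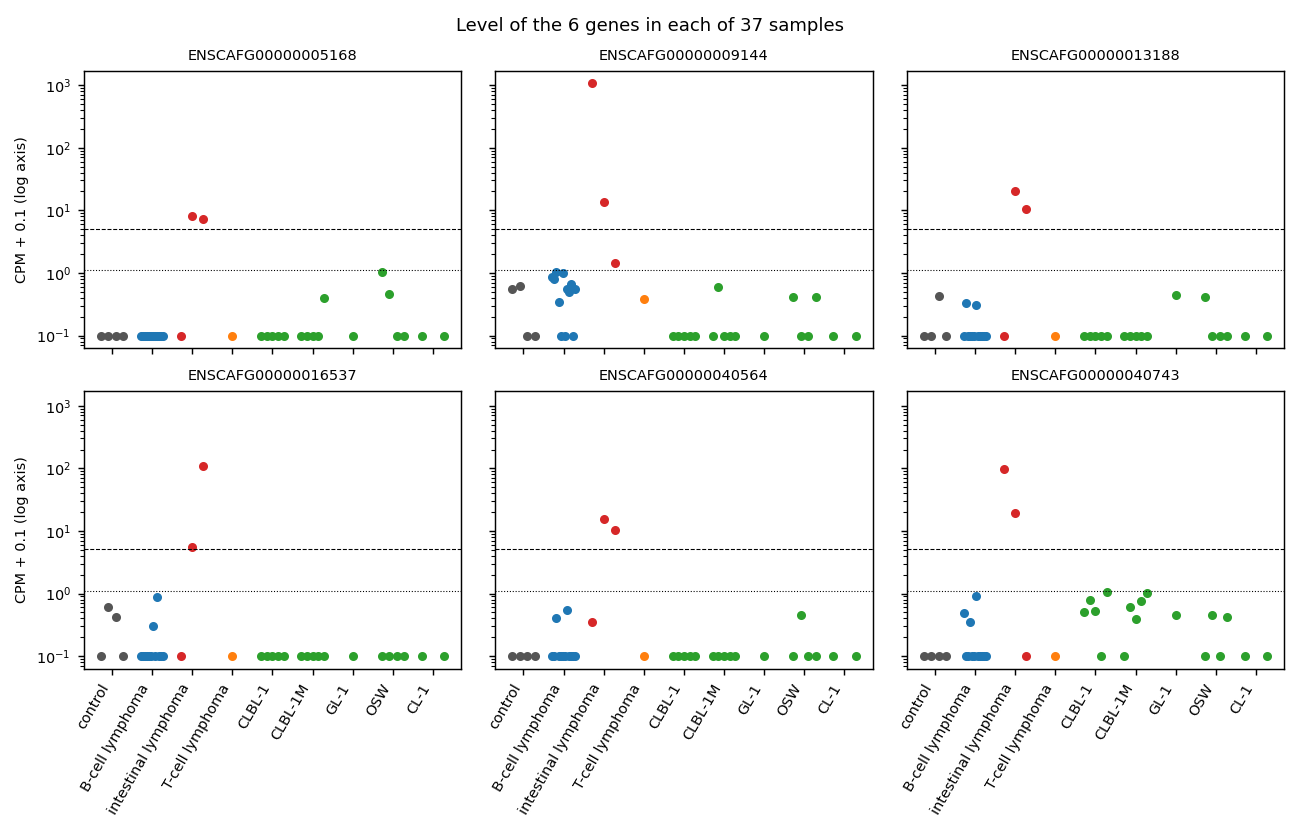
Level of each of the 6 genes in all 37 samples, as CPM + 0.1 on a log axis, with 1 point per sample and samples in the order of their replicate numbers within a group; the dashed line marks 5 CPM, the dotted line 1 CPM, and points at the bottom are samples with 0 counts. In each panel 2 intestinal lymphomas lie above the dashed line, and the T-cell lymphoma lies at or near the bottom.

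Of the genes high in replicates 1 and 2, ENSCAFG00000009144 had the highest count of any member in any sample. It was at 1071 CPM in intestinal replicate 1 (4193 counts, interval 1039 to 1104), at 13.4 CPM in replicate 2 (30 counts, interval 9.03 to 19.1) and at 1.35 CPM in replicate 3 (3 counts, interval 0.278 to 3.93). All 3 intestinal lymphomas therefore had reads, but replicate 1 was 80.0-fold above replicate 2 (interval of the ratio 56.0 to 118.7) and 796-fold above replicate 3 (interval 272 to 3860). The mean over the 3 samples, 362 ± 614 CPM (SD, n = 3), had an SD larger than itself.

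Elsewhere the same gene had scattered reads, mostly in B-cell lymphomas. At least 1 count was found in 9 of 12 B-cell lymphomas, in 2 of 4 controls and in 3 of 17 cell line samples, with a total of 22 counts and no more than 3 in a sample. The B-cell lymphomas ran from 0 to 0.934 CPM with a median of 0.448 CPM. Pooled over their counts, the B-cell lymphomas were at 0.449 CPM, the controls at 0.211 CPM and the cell lines at 0.0604 CPM. The 4 controls were at 0.456, 0.509, 0 and 0 CPM in replicates 1 to 4. These levels overlapped between controls, B-cell lymphomas and cell lines and all rested on 0 to 3 reads per sample.

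The other gene of this pair, ENSCAFG00000040743, was at 99.1 CPM in replicate 1 (388 counts, interval 89.5 to 109.5), at 19.2 CPM in replicate 2 (43 counts, interval 13.9 to 25.9) and had 0 counts in replicate 3, where 3 counts would be 1.35 CPM. Replicate 1 was 5.17-fold above replicate 2 (interval 3.76 to 7.25) and 73.6-fold above the level of 3 counts in replicate 3. Ratios to the level of 3 counts are given where a sample was at 0. They leave out counting error and are not lower limits. Unlike ENSCAFG00000009144, it had 0 counts in all 4 controls. Scattered reads of it lay mainly in the B-cell lines, with at least 1 count in 4 of the 5 samples titled CLBL-1, in another 4 of the 5 titled CLBL-1M, and in GL-1. In the T-cell lines, OSW had reads in 2 of 4 samples and CL-1 in 0 of 2. The CLBL-1 samples ran from 0 to 0.947 CPM (median 0.431) and the CLBL-1M samples from 0 to 0.911 CPM (median 0.505), against 3 of 12 B-cell lymphomas with reads and a highest level of 0.822 CPM there. Its highest level outside the intestinal lymphomas, 0.947 CPM in CLBL-1 replicate 5, was 3 counts and lay just under the limit of the rule.

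The 4 genes high in replicates 2 and 3 were at or near 0 in replicate 1, which was the deepest of the 3 libraries. ENSCAFG00000016537 was at 110.8 CPM in replicate 3 (247 counts, interval 97.4 to 125.5) and at 5.36 CPM in replicate 2 (12 counts, interval 2.77 to 9.36), with 0 counts in replicate 1. Replicate 3 was 20.7-fold above replicate 2 (interval 11.6 to 40.6) and 144.6-fold above the level of 3 counts in replicate 1. The value in replicate 2 was the lowest that admitted any member, and its interval reached below 5 CPM. Outside the intestinal lymphomas the gene had 0 counts in all 17 cell line samples, 1 count each in control replicates 2 and 3, and a highest level of 0.782 CPM in B-cell lymphoma replicate 9.

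For the remaining 3 genes the ratio of CPM between replicates 2 and 3 was below 2, and each interval reached above 2. ENSCAFG00000013188 was at 20.5 CPM in replicate 2 (46 counts, interval 15.03 to 27.4) and 10.3 CPM in replicate 3 (23 counts, interval 6.54 to 15.5), with 0 counts in replicate 1. The ratio between them was 1.99, with an interval (1.18 to 3.44) that did not include equality. Replicate 2 was 26.8-fold above the level of 3 counts in replicate 1. Elsewhere it had 5 counts in all, 1 each in 5 of 33 samples, and a highest level of 0.350 CPM in GL-1.

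ENSCAFG00000040564 was at 15.6 CPM in replicate 2 (35 counts, interval 10.9 to 21.7), 10.3 CPM in replicate 3 (23 counts, interval 6.54 to 15.5) and 0.255 CPM in replicate 1 (1 count). Replicates 2 and 3 had a ratio of 1.51 whose interval, 0.870 to 2.68, included equality. The ratio of replicate 2 to replicate 1 was 61.2 with a counting interval of 10.3 to 2483. With 3 counts over the 33 comparison samples and a highest level of 0.444 CPM, this gene and ENSCAFG00000013188 were the 2 members below 0.5 CPM in every comparison sample. None of its reads lay in controls.

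ENSCAFG00000005168 had the fewest reads of the 6, with 8.03 CPM in replicate 2 (18 counts, interval 4.76 to 12.7), 7.18 CPM in replicate 3 (16 counts, interval 4.10 to 11.7) and 0 counts in replicate 1. Both intervals reached below 5 CPM. Replicates 2 and 3 had a ratio of 1.12 (interval 0.539 to 2.35), and replicate 2 was 10.5-fold above the level of 3 counts in replicate 1. No read was counted in the 4 controls or the 12 B-cell lymphomas. Its reads elsewhere lay in 3 of 17 cell line samples, with 3 counts (0.952 CPM) in OSW replicate 1, the highest level of any member in the comparison samples.

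**Figure D2:**
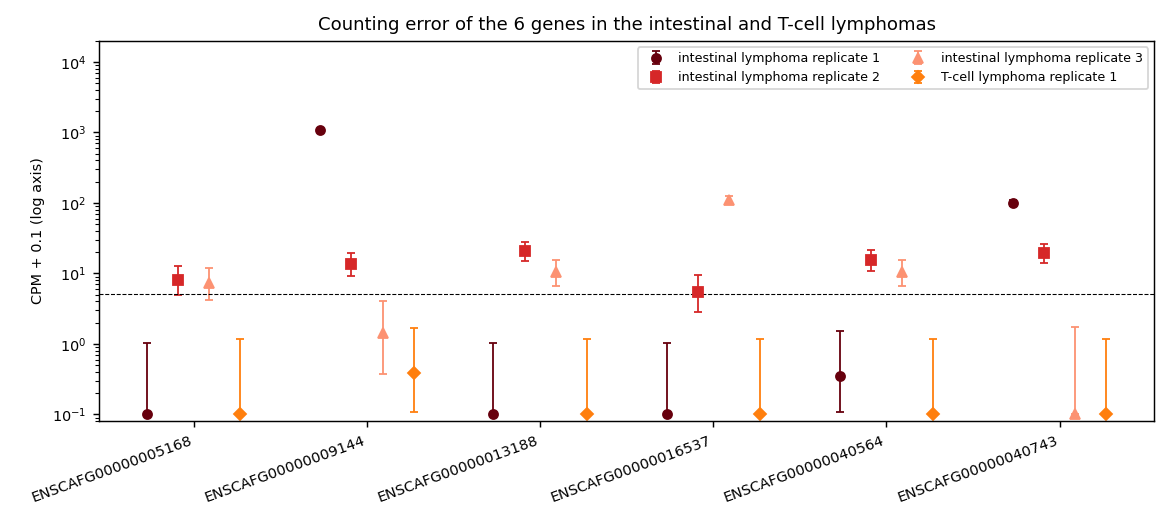
Level of the 6 genes in the 3 intestinal lymphomas and the T-cell lymphoma, as CPM + 0.1 on a log axis, with exact 95% Poisson intervals as bars and a dashed line at 5 CPM. For each gene the intervals of the intestinal samples above 5 CPM lie apart from that of the intestinal sample below it. The rule used the values of the intestinal samples, so this gap is a description only.

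In the T-cell lymphoma, 0 of the 6 genes reached 1 CPM. Its only read on a member was 1 count of ENSCAFG00000009144 (0.287 CPM, interval 0.00726 to 1.60), a level inside the range of the B-cell lymphomas. For the other 5 genes a count of 0 allowed up to 0.860 CPM in this library, taken as 3 counts of its total. The exact upper bound for a count of 0 there was 1.06 CPM. This is 1 sample, so the comparison has no replicate check. Over all genes kept by the filter on low counts, expression in the T-cell lymphoma had a Spearman correlation of 0.808, 0.859 and 0.822 with intestinal replicates 1, 2 and 3. The 3 intestinal lymphomas correlated with one another at 0.842 (replicates 1 and 2), 0.812 (1 and 3) and 0.841 (2 and 3). Among the controls, replicates 1 to 3 correlated at 0.940 to 0.966, and replicate 4 correlated with them at 0.898 to 0.928. These are correlations across genes, which are not independent replicates, and they share the genes that every sample expresses.

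The comparison samples were not free of reads from the module. Of 198 combinations of a member and a comparison sample, 43 (21.7%) had at least 1 count, and 25 of the 33 samples had at least 1 read on some member. Summed over the 6 genes, the controls ran from 0 to 1.02 CPM (median 0.558), the B-cell lymphomas from 0 to 1.25 CPM (median 0.901) and the cell lines from 0 to 1.59 CPM (median 0.634). The lowest intestinal sum was 82.1 CPM. Its place above all of these follows from the limits of the rule and is no separate result. Reads in the comparison samples came to 63 counts in all, of which 45 belonged to the pair high in intestinal replicate 1.

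The parts of the rule removed different numbers of genes. At least 5 CPM in 2 or more intestinal lymphomas was met by 10670 genes, 32.6% of those in the tables, and 98.2% of these were at 1 CPM or more in the T-cell lymphoma too. Requiring below 1 CPM in the 4 controls alone left 26 genes, in the 12 B-cell lymphomas alone 44 and in the 17 cell line samples alone 106. Controls and cell lines together left the 6 genes, and the B-cell lymphomas then removed none. Controls and B-cell lymphomas together, without the cell lines, left 20 genes, and B-cell lymphomas and cell lines together, without the controls, left 10. The limit in the controls was met by 0 genes that were at 5 CPM or more in all 3 intestinal lymphomas.

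**Figure D3:**
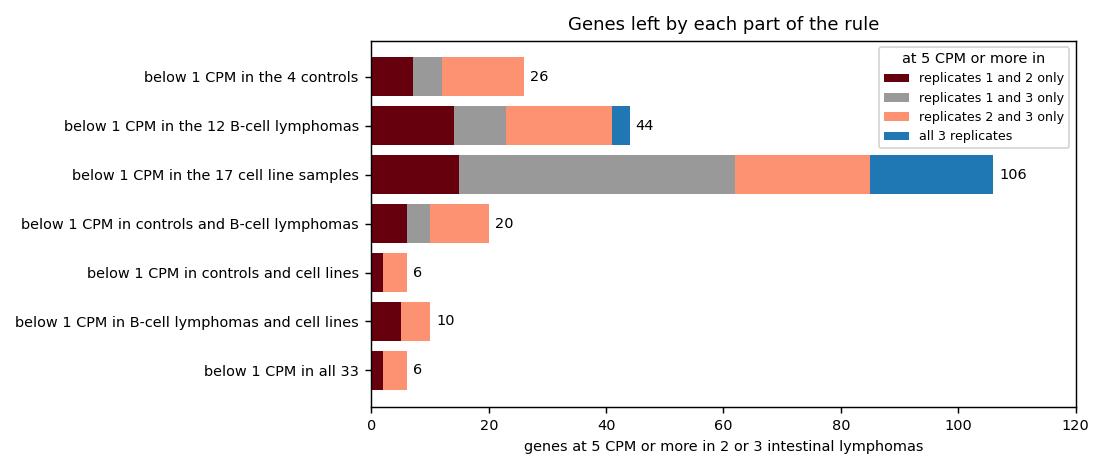
Number of genes at 5 CPM or more in 2 or 3 intestinal lymphomas that each part of the rule left, with bars starting at 0 and colours for the intestinal samples that reached 5 CPM. The bars that include the controls hold no gene at 5 CPM in all 3 intestinal lymphomas, and the last bar holds the 6 members.

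A further 14 genes were kept out of the module by the cell lines alone, and their levels in the T-cell lymphoma are given beside those of the members, without a test and chosen after the values were seen. Of these 14 genes, 7 were at 1 CPM or more in the T-cell lymphoma, 4 at 5 CPM or more and 6 at 0 CPM, with a range of 0 to 24.9 CPM. Among the members, 0 of 6 were at 1 CPM. The 2 sets were split by their level in the cell lines, so they are not like sets. Their highest cell line level was found in OSW for 7 genes, in CL-1 for 5 and in GL-1 for 2. At 5 CPM or more there were 9 genes in OSW, 5 in CL-1, 3 in GL-1 and 0 in CLBL-1 and CLBL-1M, and 10 of the 14 stayed below 1 CPM in every CLBL-1 and CLBL-1M sample. The highest level in any cell line sample ran from 1.07 to 196 CPM (median 24.3).

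Genes seen in 1 intestinal lymphoma outnumbered those shared by a pair. Below 1 CPM in the 33 comparison samples, 49 genes were at 5 CPM or more in exactly 1 intestinal lymphoma, 6 in 2 of them (the module) and 0 in all 3. Of the 49, 15 were in replicate 1, 6 in replicate 2 and 28 in replicate 3, and the T-cell lymphoma was at 1 CPM or more for 4 of those in replicate 3 and for 0 of the others. Genes at 5 CPM or more in 1 sample and below 1 CPM in all other 36 samples numbered 12, 5 and 24 in intestinal replicates 1 to 3 and 25 in the T-cell lymphoma. The controls had 0 to 12 such genes, with the highest number in control replicate 4, and each B-cell lymphoma had 0 to 13. The ranges of the intestinal lymphomas, controls and B-cell lymphomas overlapped, and the T-cell lymphoma lay above them. A group of 1 sample has no like sample that could take a gene out of this count. GL-1, also 1 sample, had 36 such genes, and every sample of the other lines had 0. Intestinal replicate 2, which had reads of all 6 members, had the fewest such genes of its own among the intestinal lymphomas.

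**Figure D4:**
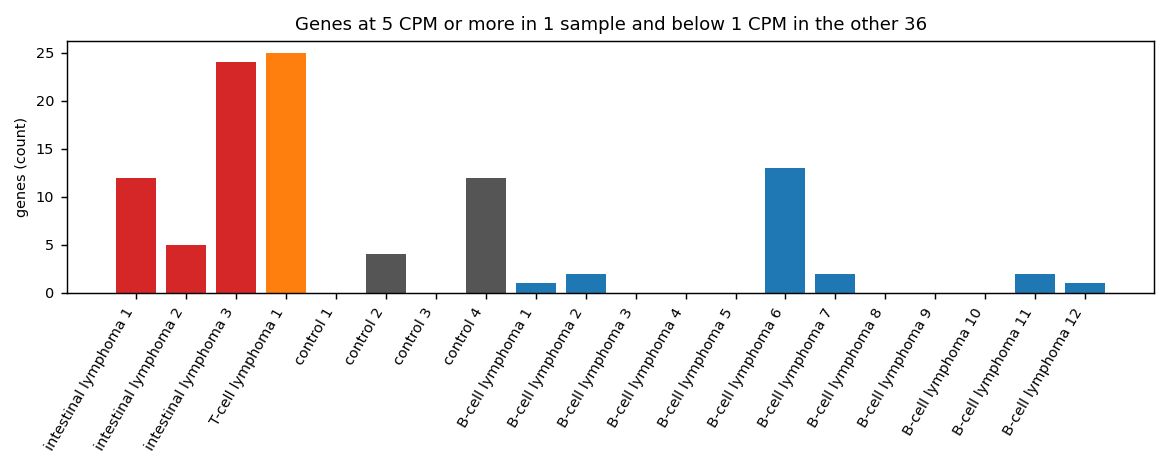
Number of genes at 5 CPM or more in 1 primary sample and below 1 CPM in the other 36 samples, for each intestinal lymphoma, the T-cell lymphoma, each control and each B-cell lymphoma, with bars starting at 0. Intestinal replicate 3 and the T-cell lymphoma, at 24 and 25 genes, have the tallest bars, and B-cell lymphoma replicate 6 and control replicate 4 have 13 and 12.

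The thresholds passed close to several genes. The lowest second-highest intestinal levels among members were 5.36, 7.18 and 10.3 CPM. The nearest genes outside, all below 1 CPM in the comparison samples, had second-highest levels of 4.04, 3.59 and 3.57 CPM, the first of them in ENSCAFG00000002045. At the lower limit, members reached 0.952, 0.947 and 0.934 CPM in a comparison sample, and the nearest genes outside were at 1.02, 1.02 and 1.07 CPM. Among these, ENSCAFG00000033152 was at 329 CPM in intestinal replicate 1, 12.9 CPM in replicate 2 and 0 in replicate 3, and was kept out by its level in control replicate 2, where 1.02 CPM was 2 counts. Without control replicate 2 the rule gave 8 genes, and without control replicate 4 it gave 7.

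Over the whole transcriptome, 5602 of 15162 genes differed between the intestinal lymphomas and the controls in edgeR's quasi-likelihood test at a Benjamini-Hochberg adjusted p of 0.05, 3183 of them higher in the intestinal lymphomas. The spread in this test came from all 9 groups, cell line samples included. With only the intestinal lymphomas and controls fitted, 2040 genes were called. The balance of directions depended on the settings. Higher genes were 56.8% of those called with TMM and 46.4% with RLE size factors, where only the scaling differed. They were 48.6% with another filter on low counts (filterByExpr), 45.1% in DESeq2, and 42% when only the intestinal lymphomas and controls were fitted. The median over all tested genes changed from 0.05 with TMM to -0.10 with RLE on the log2 scale, a shift of -0.15. Against the B-cell lymphomas 4266 genes differed, 2674 of them higher. All 6 members passed the filter, through the intestinal samples in which they were high, and all 6 were called higher in both comparisons, where 21% (against controls) and 17.6% (against B-cell lymphomas) of all tested genes were called higher. The rule used both contrasts, so this count says nothing about the members.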

How the data were processed

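Poly-A RNA of 37 samples was sequenced as paired-end reads. Per the study's methods and the processing notes of the labels, the authors aligned reads to CanFam3.1 with BWA, used Picard and SAMtools to drop duplicate and poorly mapped reads, and ran HTSeq 0.6.1 on Ensembl genes. Each deposited table holds unnormalized counts, and dropping duplicates can lower the highest ones. The strand setting is not given in the sources used here. The 5 summary rows of each table stayed out of all totals, and 68.0 to 82.9% of reads per sample lay outside genes.

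CPM was computed from the sum of all gene counts (3 counts were 0.617 to 1.53 CPM). Groups followed the sample titles. In R 4.3.3, edgeR 4.0.16 with TMM fitted 9 groups in 1 model to the 15162 genes whose highest CPM lay above the 40th percentile, a filter like that of the study. The labels do not say whether samples of a line were separate cultures. The 9 groups shared 1 estimate of the spread of each gene, cell line samples included. The p-values therefore do not measure the spread among the compared groups alone. DESeq2 1.42.0 and Python 3.11.15 were also used. Alternatives covered scaling, filters, thresholds, depth (20 draws of 1962722 counts), left-out samples and the replicate block.

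The members and lists were chosen with earlier results of these data known. The rule for named genes covered every member in a marker list, the 30 members with the highest median intestinal level (here all 6), members in the T-cell lymphoma and the genes nearest the thresholds, of which 2 are named. Marker lists, promoter motifs and sequences were not analysed here, because the tables used here pair the identifiers of these genes with no symbol or position. Whether members share reads with near-identical or overlapping genes was not analysed here.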

Additional observations from a re-analysis of the deposited data

Results flagged for a closer look

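Of 12 values examined in the groups of 4 and 5 samples, 1 lay far from the rest of its group. In control replicate 4, 0.4763% of reads fell on more than 1 gene, against 0.129 to 0.143% in the other 3 controls. The gap was 0.959 of the range of the 4 controls, above the critical value of 0.829, which chance passes in about 1 of 20 groups. This control had 0 counts on all 6 genes of the module, and without it 7 genes met the rule. The groups of 3, 12 and 1 samples were not examined in this way.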

How the results depend on the processing

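The number of genes in the module was 6. It rose to 10 with an upper threshold of 2.5 CPM, to 10 with a lower threshold of 2 CPM, and to 20 and 10 when the cell lines or the controls were taken out of the samples below 1 CPM (chosen after seeing the data). It fell to 2 with a lower threshold of 0.5 CPM, to 0 when all 3 intestinal lymphomas had to reach 5 CPM, and to a median of 2.5 (2 to 4) when counts were thinned to 1962722 per sample. ENSCAFG00000013188 and ENSCAFG00000040564 passed in 20 of 20 thinned draws, ENSCAFG00000005168 and ENSCAFG00000016537 in 5, and ENSCAFG00000009144 and ENSCAFG00000040743 in 0. At this depth 2 counts were 1.02 CPM, so 2 reads in a comparison sample took a gene out. ENSCAFG00000009144 and ENSCAFG00000040743 had the most reads in the comparison samples before thinning, 22 and 23 counts. Leaving out 1 sample gave 0 to 8 genes, with 0 without intestinal replicate 2, 2 without replicate 3, 4 without replicate 1, 8 without control replicate 2 and 7 without control replicate 4. Without an intestinal sample the rule asked for 5 CPM in both others. The numbers without intestinal samples therefore restate the pairs of replicates in which members were high, and are no separate check. The other alternatives gave 4 to 8, and the number of members at 1 CPM in the T-cell lymphoma remained 0 with TMM scaling and in the thinned counts.

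Genes called against the controls fell from 5602 to 2040 when only these groups were fitted and to 285 at an adjusted p of 1e-05, and those called against the B-cell lymphomas fell from 4266 to 2523 and 595. The cause of the fall with only these groups was not tested. Leaving out 1 replicate gave 4680 to 5338 and 3227 to 4154 genes. With the replicate block 5187 and 2921 genes were called. Samples share only a number: correlations of their deviations from the group means between same-numbered samples ran from -0.208 to 0.0194. Depth limits every statement on reads below 1 CPM, and the marker lists were not analysed under any alternative.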
